A study of Mus musculus with 2 samples.

Results

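The DNA replication genes described here are 46 genes chosen by name for their place in chromosome duplication, from the licensing of origins to the supply of nucleotides. All 46 symbols were found among the 24346 symbols of both deposited tables, and 44 of them reached a mean FPKM of 1. FPKM (fragments for each kilobase of RNA, scaled to library depth) is a level per transcript length, so levels of different genes can be set side by side. RNA had been sequenced from CD4+ T cells that were sorted from mouse spleen at day 14. The probucol group was labelled HFD-MI plus probucol, an antioxidant drug that lowers cholesterol, and the untreated group HFD-MI alone. Each group had 1 library, so no difference below has a replicate check and no p-value was computed. The labels give neither strain, age nor genotype, nor how many animals went into a library. Both column headers include HypoE, a term left unexplained in the labels. Where a gene is given 2 values, the first is FPKM with probucol and the second FPKM in the untreated library.

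Before a cell divides, the origin recognition complex, Cdc6 and Cdt1 load the ring-shaped MCM2-7 helicase onto chromatin. In S phase, Cdc45 and the GINS complex join the ring and switch it on, polymerase alpha with primase starts each new strand, and polymerases delta and epsilon extend it on the sliding clamp PCNA. Most of these genes are transcribed under E2F factors as cells leave quiescence. Resting naive T cells express them weakly and antigen-driven T cells strongly, so their RNA is widely read as a sign of proliferation. In RNA from a whole sorted population, fewer cycling cells and less replication RNA per cell cannot be told apart.

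E2F factors bind a motif that is written here as TTTCGCGC or TTTGGCGC and was searched on both strands. RefSeq promoter windows (GRCm38.p6, the assembly of mm10) run from 250 bases before to 50 bases after an annotated start, and 38 of the 46 genes had at least 1 window. The motif was present for 10 of these 38 genes (26.3%) and for 251 of all 27025 genes in the table (0.929%). The 10 genes were Cdt1, Lig1, Mcm3, Mcm5, Mcm6, Mcm7, Orc1, Pola1, Pole2 and Rfc3, so 4 of the 6 ring subunits were among them. The 6 windows shown belong to the motif-bearing genes with the highest mean levels, and are given because they show where the shared letters lie. Capitals mark these letters on either strand. Other spellings of the motif were not searched and stay in lower case.
Mcm6 (chr1:128359656-128359955, - strand): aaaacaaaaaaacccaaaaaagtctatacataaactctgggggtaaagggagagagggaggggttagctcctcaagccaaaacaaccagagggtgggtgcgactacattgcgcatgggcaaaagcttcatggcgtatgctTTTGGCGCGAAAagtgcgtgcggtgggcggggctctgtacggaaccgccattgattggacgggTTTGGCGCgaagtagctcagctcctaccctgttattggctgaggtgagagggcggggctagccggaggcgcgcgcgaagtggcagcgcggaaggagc
Mcm7 (chr5:138171834-138172133, - strand): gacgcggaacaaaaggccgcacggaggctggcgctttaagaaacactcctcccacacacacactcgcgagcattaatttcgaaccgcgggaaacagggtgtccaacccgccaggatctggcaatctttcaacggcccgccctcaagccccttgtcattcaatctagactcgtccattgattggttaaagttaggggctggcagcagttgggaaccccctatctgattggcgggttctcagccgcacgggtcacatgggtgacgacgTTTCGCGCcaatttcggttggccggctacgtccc
Mcm3 (chr1:20820263-20820562, - strand): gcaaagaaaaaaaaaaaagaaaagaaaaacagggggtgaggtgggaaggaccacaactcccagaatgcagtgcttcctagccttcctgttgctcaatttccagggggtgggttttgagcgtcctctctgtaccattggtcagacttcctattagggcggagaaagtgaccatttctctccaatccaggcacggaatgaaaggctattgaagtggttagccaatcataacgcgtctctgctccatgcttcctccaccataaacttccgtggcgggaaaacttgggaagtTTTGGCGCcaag
Mcm5 (chr8:75109259-75109558, + strand): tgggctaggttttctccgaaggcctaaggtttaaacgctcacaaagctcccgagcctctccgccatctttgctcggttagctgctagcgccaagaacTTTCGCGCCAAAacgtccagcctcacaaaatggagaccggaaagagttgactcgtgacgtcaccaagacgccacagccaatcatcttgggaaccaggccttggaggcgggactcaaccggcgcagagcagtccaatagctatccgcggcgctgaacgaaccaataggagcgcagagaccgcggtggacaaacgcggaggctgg
Cdt1 (chr8:122567765-122568064, + strand): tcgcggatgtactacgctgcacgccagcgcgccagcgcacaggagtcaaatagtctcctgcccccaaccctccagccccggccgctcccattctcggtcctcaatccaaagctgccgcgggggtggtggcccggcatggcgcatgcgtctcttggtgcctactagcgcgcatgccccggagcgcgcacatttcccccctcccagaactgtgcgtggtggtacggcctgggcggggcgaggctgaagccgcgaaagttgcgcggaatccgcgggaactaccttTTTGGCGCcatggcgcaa
Rfc3 (chr5:151651159-151651458, - strand): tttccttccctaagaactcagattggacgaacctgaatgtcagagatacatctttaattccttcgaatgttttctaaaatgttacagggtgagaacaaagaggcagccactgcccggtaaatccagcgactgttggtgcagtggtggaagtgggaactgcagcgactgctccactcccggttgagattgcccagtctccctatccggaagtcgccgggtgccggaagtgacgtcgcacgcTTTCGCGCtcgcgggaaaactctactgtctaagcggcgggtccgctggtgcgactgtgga

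Mcm6 held 3 matches, of which a pair overlapped, and Mcm5 held 2 overlapping matches on opposite strands. In Mcm7 the match shared a base with a CCAAT letter group. CCAAT itself was present on either strand for 23 of the 38 genes (60.5%) and 41.1% of all genes. TTTGAA or TTCGAA, the letters of the CHR element of late cell cycle promoters, was present for 7 of the 38 (18.4%) and 21.7% of all genes. A match describes the letters of a window and is not evidence of binding.

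Fragment numbers were estimated from the steps between low FPKM values. They came to 1.04e+07 fragments in each library, and a 1 kb transcript at 1 FPKM rested on about 7.86 fragments with probucol and 7.90 untreated. Intervals given below are 95% exact binomial (Clopper-Pearson) intervals of a fold. They cover counting error only, with PCR copies included. Of the labelled cells' defining genes, Cd3d was at 688 and 713 FPKM and Cd4 at 334 and 284 FPKM, but the neutrophil gene S100a8 was also high, at 591 and 536 FPKM. More symbols were above 0 untreated (16876) than with probucol (14289), which bears most on genes of low level.

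Levels of the replication genes covered a wide range. The mean of the libraries was 50 FPKM or more for 6 genes, 10 to 50 for 24, 1 to 10 for 14 and under 1 for 2. Pcna, the sliding clamp, stood first at 129 and 113 FPKM, and Mcm6 second at 92.7 and 115 FPKM. Rpa1, Rfc2, Rpa3 and Gins4 followed, with mean levels from 52.5 to 83.8 FPKM. At the other end stood Mcm10 and Ccne2, with means of 0.871 and 0.834 FPKM. They were the only genes of the 46 under the filter of 1, and Pole, at a mean of 1.16 FPKM, was the lowest above it. Summed FPKM of all 46 genes was 1089 with probucol and 1242 untreated.

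**Figure D1:**
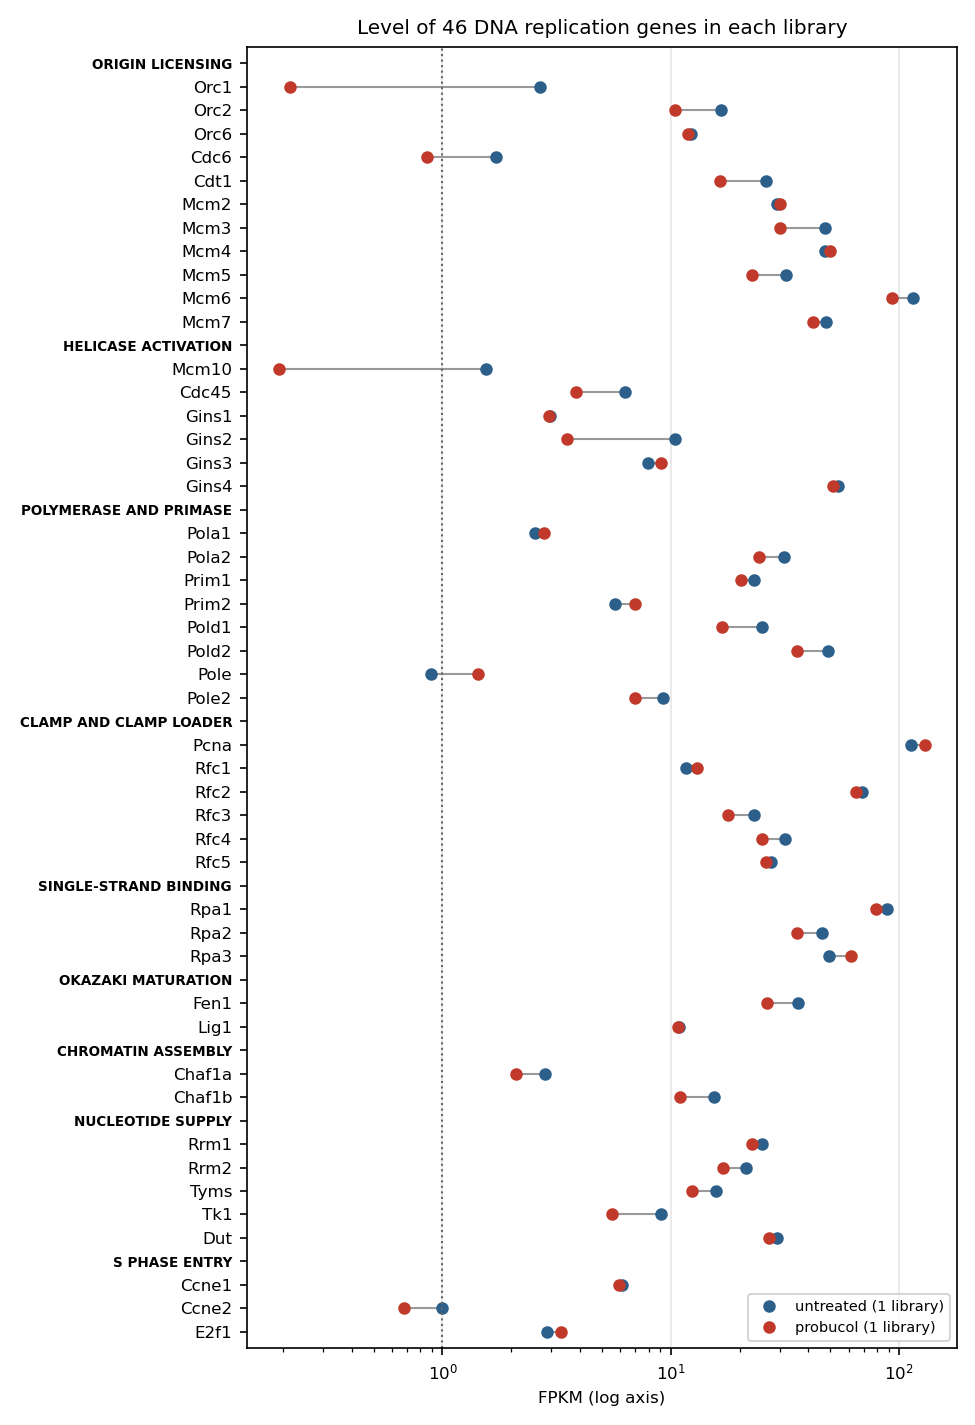
FPKM on a log axis for the 46 genes, grouped by role, with 1 point per library (red probucol, blue untreated) and a dotted line at 1 FPKM. Most red points lie to the left of the blue ones, by small distances, while 10 genes, Pcna, Rpa3, Prim2 and Pole among them, lie the other way.

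Most replication genes were somewhat lower with probucol. The ratio used for counting was log2((probucol + 1)/(untreated + 1)), which understates the difference of low genes. Of the 44 genes, 34 (77.3%) had a ratio below 0 and 10 above it, while of all 10663 genes with a mean of 1 or more, 47.3% lay below 0 and 52.7% above. The median ratio of the 44 was -0.24, and that of all genes was 0.02. Differences were small for most members: 2 of 44 were at least 2-fold lower (1.98% of all genes) and 0 at least 2-fold higher (1.62%). At a 1.5-fold threshold 7 of 44 were lower (5.53% of all genes) and 0 higher (5.99%). With a pseudocount of 5 in place of 1, a single gene was past it on the lower side (1.88% of all genes).

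Members of high level made up most of the lower count, as they did of the list (30 of 44). Among the 30 genes with a mean of 10 FPKM or more, 25 had a ratio below 0 (49.8% of all genes in that range), 3 were at least 1.5-fold lower (2.59%) and 0 at least 2-fold lower (1.03%) or higher (1.03%). Among the 14 genes with a mean from 1 to under 10, 9 were below 0 (43.6% of such genes), 4 at least 1.5-fold lower (9.94%), 2 at least 2-fold lower (3.40%) and 0 at least 2-fold higher (2.51%). The counting interval of the fold lay wholly below 1 for 26 of the 44 genes, against 24.2% of the genes with a known length. It lay wholly above 1 for 3, against 29.0%. For the other 15 it included 1. An interval of this kind describes the pair of libraries and not the treatment.

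**Figure D2:**
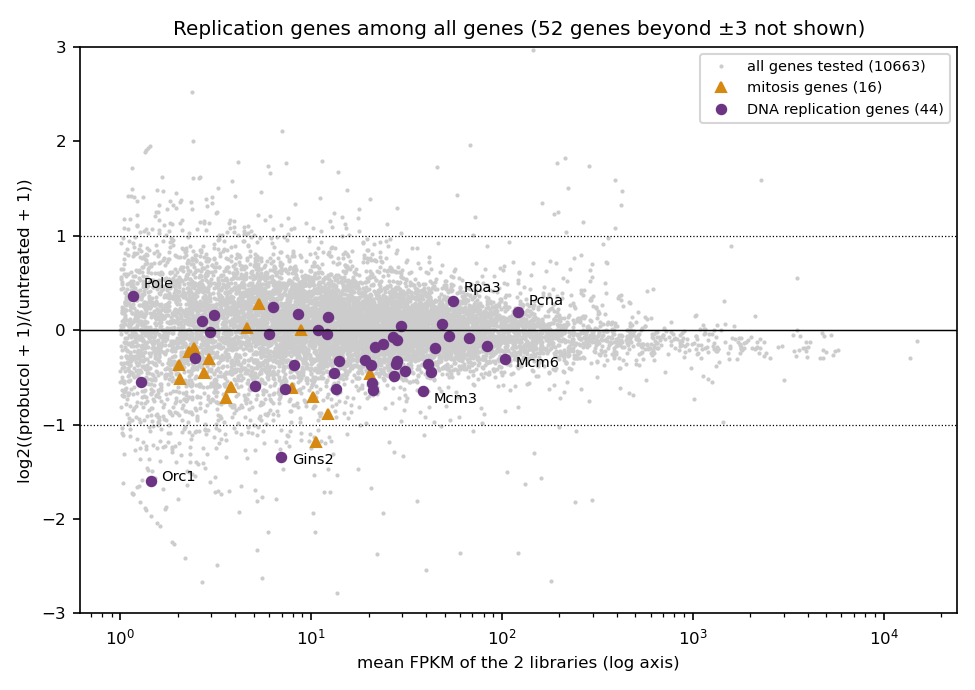
Log2 ratio of probucol over untreated (FPKM + 1) against mean FPKM on a log axis, for all genes tested (grey), the 44 replication genes (purple) and 16 mitosis genes (orange), with dotted lines at 2-fold. The replication genes lie mostly between 0 and -0.64, and 2 of them, Orc1 and Gins2, lie below -1.

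Origin licensing genes held the lowest single ratio, that of Orc1, though with 5 FPKM added in place of 1 Gins2 (-0.86) lay below Orc1 (-0.56). Of 11 licensing genes 9 were below 0 (47.3% of all genes), with a median of -0.49. At least 1.5-fold lower were 4 (5.53%), and 1 was at least 2-fold lower (1.98%). Orc1 (chromosome 4, 108579423 to 108614833, mm10), the large ATPase subunit of the origin recognition complex, was at 0.215 and 2.67 FPKM. It was thus 12.4-fold lower (5.45 to 35.0), on about 6 and 75 fragments. Its partner Orc2 was at 10.4 and 16.5 FPKM, 1.59-fold lower (1.35 to 1.87). Orc6, the smallest subunit, was at 11.9 and 12.2 FPKM, nearly level. However, 114 of its exon bases are shared with Vps35 on the other strand, which stood at 59.6 and 53.5 FPKM. The measured ratios of these subunits therefore differed.

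Both loaders of the helicase were lower with probucol. Cdt1, which brings the ring to origins and is destroyed once S phase begins, was at 16.4 and 26.0 FPKM, 1.59-fold lower (1.38 to 1.83). Cdc6, the ATPase that acts with it, was at 0.858 and 1.72 FPKM, 2.01-fold lower (1.25 to 3.22), on about 29 and 58 fragments. On the scale with 1 added, its log2 ratio was -0.55, under the 1.5-fold threshold.

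The 6 ring subunits did not share 1 ratio either. Mcm3 (chromosome 1, 20802968 to 20820312) was at 30.0 and 47.3 FPKM, 1.58-fold lower (1.44 to 1.72). Its neighbour in the ring, Mcm5, was at 22.6 and 32.0 FPKM, 1.42-fold lower (1.29 to 1.56). Mcm6, which had the highest level of the ring in both libraries, was 1.24-fold lower (1.18 to 1.30), and Mcm7, at 41.7 and 47.8 FPKM, 1.15-fold lower (1.06 to 1.24). Mcm2 and Mcm4 were level within counting error, at 30.2 and 29.3 FPKM and at 49.9 and 47.5 FPKM, with folds of 1.03 (0.940 to 1.13) and 1.05 (0.980 to 1.13). The ring proteins are present once each in the hexamer, yet the highest subunit RNA was 4.10 times the lowest with probucol and 3.91 times untreated.

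Helicase activation genes had ratios from -1.35 to 0.17 over the 5 that passed the filter. Of these, 4 were below 0 (47.3% of all genes), and the median was -0.07. Gins2 (chromosome 8, 120578633 to 120589304), a subunit of the 4-part GINS complex, was at 3.503 and 10.46 FPKM, 2.99-fold lower (2.43 to 3.66). Much of this transcript, 2758 of 3900 bases, is also exon of Gse1 on the opposite strand, so its fragments cannot be assigned with certainty. Gse1 stood at 3.65 and 3.25 FPKM. The other GINS genes were level within counting error: Gins1 at 2.92 and 2.96 FPKM, Gins3 at 9.05 and 7.93 FPKM, and Gins4 at 51.3 and 53.7 FPKM. Gins4 was 17.6 times the level of Gins1 with probucol and 18.2 times untreated, although the complex holds 1 copy of each.

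Cdc45, the partner of GINS on the active helicase, was at 3.86 and 6.31 FPKM, 1.64-fold lower (1.195 to 2.25). Mcm10, which helps to fire the loaded ring, was at 0.192 and 1.55 FPKM, 8.06-fold lower (3.68 to 18.6), on about 8 and 62 fragments. Together with Orc1 it was among the least detected members of the list with probucol.

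**Figure D3:**
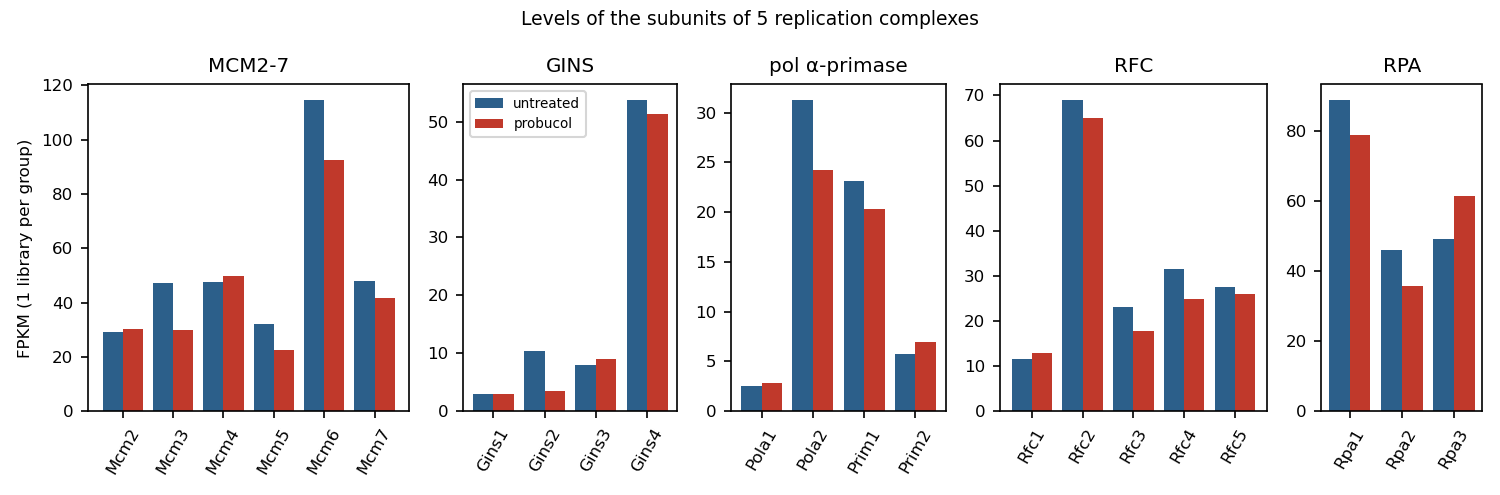
FPKM per library (blue untreated, red probucol, bars from 0, 1 library each) for the subunits of MCM2-7, GINS, polymerase alpha with primase, RFC and RPA. Mcm6, Gins4, Pola2, Rfc2 and Rpa1 stand highest in their complexes in both libraries, and Gins2, Mcm3 and Mcm5 show the widest gaps between the bars of a pair, as folds.

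Among 8 polymerase and primase genes, 5 were below 0 (47.3% of all genes) and 3 above (52.7%), with a median of -0.27. Once 1 FPKM is added, 0 were at least 1.5-fold lower (5.53%) or higher (5.99%). Both listed subunits of polymerase delta, which copies the lagging strand, were lower. Its other subunits, Pold3 and Pold4, were at 19.6 and 22.3 FPKM and at 58.2 and 56.5 FPKM. The catalytic Pold1 was at 16.7 and 25.02 FPKM, 1.497-fold lower (1.34 to 1.67), and the accessory Pold2 at 35.7 and 49.0 FPKM, 1.37-fold lower (1.22 to 1.54). Polymerase epsilon, the leading strand enzyme, was split among its listed genes. Its other subunits, Pole3 and Pole4, were at 30.3 and 32.4 FPKM and at 142 and 135 FPKM. Its catalytic gene Pole (chromosome 5, 110286306 to 110337474) was at 1.43 and 0.894 FPKM, 1.60-fold higher (1.16 to 2.24) on about 99 and 62 fragments, while Pole2 was at 6.94 and 9.26 FPKM, 1.33-fold lower (1.03 to 1.75).

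The polymerase alpha and primase genes were close between the libraries. Pola2, the regulatory subunit and the most abundant of the 4, was at 24.2 and 31.3 FPKM, 1.29-fold lower (1.15 to 1.45). The catalytic Pola1 was at 2.79 and 2.54 FPKM. Of the primase pair that lays down RNA primers, Prim1 was at 20.3 and 23.1 FPKM and Prim2 at 6.97 and 5.70 FPKM. For Pola1, Prim1 and Prim2 the counting interval included 1.

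The clamp was among the few members higher with probucol. Pcna (chromosome 2, 132249162 to 132253314) was 1.15-fold higher (1.07 to 1.23), on about 1683 and 1475 fragments, some of which could belong to its annotated pseudogenes Pcna-ps1 and Pcna-ps2. The RFC complex opens the clamp and places it on DNA. Its large subunit Rfc1 was at 13.0 and 11.7 FPKM, with an interval that included 1. Rfc2 was at 64.9 and 69.0 FPKM, a fold of 0.941 (0.896 to 0.989), and 952 of its exon bases are shared with Lat2 on the other strand. Rfc3 was at 17.7 and 23.2 FPKM, 1.31-fold lower (1.08 to 1.59), Rfc4 at 24.96 and 31.5 FPKM, 1.26-fold lower (1.07 to 1.49), and Rfc5 at 26.0 and 27.5 FPKM. On the other strand, Rfc4 shares 165 exon bases with Eif4a2 (149 and 130 FPKM) and Rfc5 499 with Wsb2 (32.4 and 34.3 FPKM). The median of the 6 clamp and loader genes was -0.08.

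The single-strand binding protein RPA protects the unwound template. Rpa1, its large subunit, was at 78.9 and 88.7 FPKM, 1.12-fold lower (1.07 to 1.18). Rpa2 was at 35.7 and 45.9 FPKM, 1.29-fold lower (1.15 to 1.44). The smallest subunit, Rpa3, went the other way, at 61.3 and 49.2 FPKM, 1.25-fold higher (1.05 to 1.495). Pcna, Rpa3 and Pole were the 3 members whose counting interval lay above 1.

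Genes that finish and package the new strand were lower or level. Fen1, the flap nuclease that trims Okazaki fragments, was at 26.4 and 35.9 FPKM, 1.36-fold lower (1.21 to 1.53). Lig1, which seals them, was at 10.8 FPKM in both libraries. Chaf1b, of the CAF-1 complex that deposits histones behind the fork, was at 11.0 and 15.5 FPKM, 1.41-fold lower (1.16 to 1.71). Its partner Chaf1a was at 2.102 and 2.80 FPKM, 1.33-fold lower (1.04 to 1.72), with 1862 exon bases shared with Ubxn6, which stood at 34.9 and 42.8 FPKM.

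All 5 nucleotide supply genes had ratios below 0 (47.3% of all genes), with a median of -0.32. Tk1, the thymidine kinase of cycling cells, was at 5.53 and 9.03 FPKM, 1.63-fold lower (1.19 to 2.23). Tyms, which makes thymidylate, was at 12.3 and 15.7 FPKM, 1.28-fold lower (1.11 to 1.47), with its pseudogene Tyms-ps at 0.176 and 0.614 FPKM. Of ribonucleotide reductase, the S phase subunit Rrm2 was at 16.9 and 21.3 FPKM, 1.26-fold lower (1.09 to 1.46), and the large subunit Rrm1 at 22.6 and 25.03 FPKM, 1.11-fold lower (1.01 to 1.22). Dut, the dUTPase that keeps uracil out of DNA and the most abundant of the 5, was at 27.0 and 29.0 FPKM, 1.08-fold lower with an interval from 0.927 to 1.25.

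For the genes at the entry to S phase no difference was detectable at this depth. E2f1, the activating transcription factor, was at 3.32 and 2.87 FPKM, a fold of 1.16 (0.835 to 1.60). Ccne1, a cyclin partner of Cdk2, was at 5.91 and 6.11 FPKM. Ccne2 was at 0.676 and 0.992 FPKM, 1.47-fold lower (0.790 to 2.78) on about 19 and 28 fragments. For these 3 genes the counting interval included 1.

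**Figure D4:**
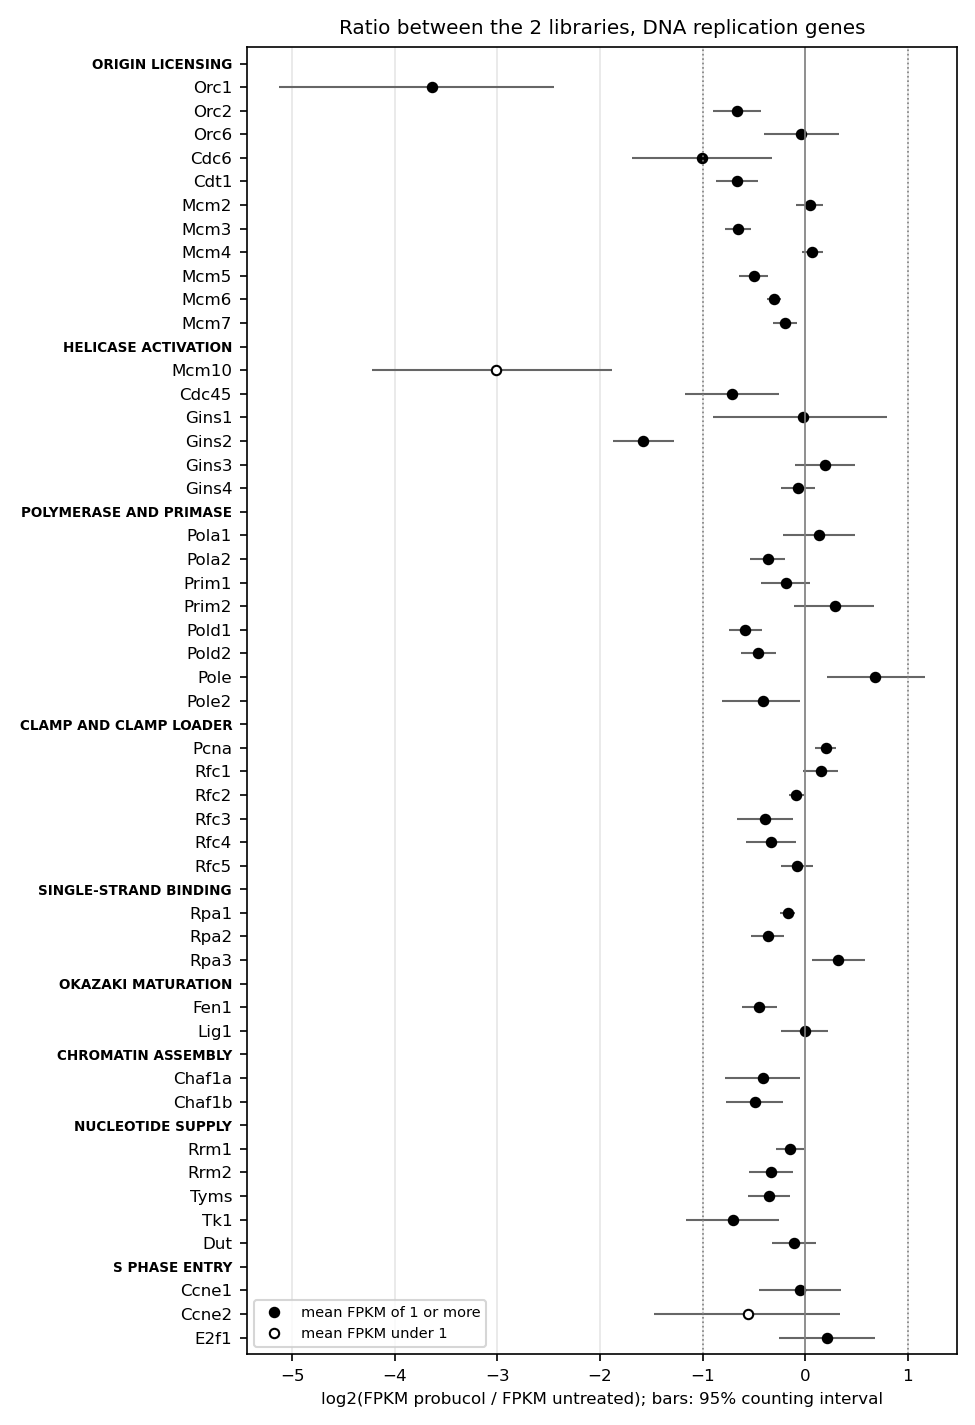
Log2 of the FPKM ratio itself (no pseudocount) for the 46 genes by role, with bars for the 95% counting interval, open points for a mean under 1 FPKM and dotted lines at 2-fold. Orc1, Mcm10 and Gins2 lie wholly left of the 2-fold line, and Pcna, Rpa3 and Pole are the members whose bars lie wholly right of 0.

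Genes with and without the E2F letters had similar medians. The 10 genes with the E2F letters had a median ratio of -0.37, with 9 below 0. The 27 others with a window and a mean of 1 or more had a median of -0.29, with 21 below 0. Of all genes, 47.3% lay below 0. For CCAAT the medians were -0.24 with it (22 genes) and -0.35 without (15 genes). Other spellings of the E2F motif were not searched, so genes without these letters may still hold an E2F site. The medians are descriptions of a few genes, and no test was made.

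Other genes of the same process had a median close to that of all genes, though more of them lay below 0. Of 28 further fork and origin genes 17 (60.7%) were below 0, against 47.3% of all genes, and 11 above. Their median was -0.04, and that of all genes 0.02. With 1 FPKM added, 0 were at least 1.5-fold lower (5.53% of all genes) and 0 at least 1.5-fold higher (5.99%). The lowest were Pclaf (listed under its older symbol), a PCNA-binding protein, at 5.66 and 8.89 FPKM, and Timeless, a fork protection gene, at 5.40 and 8.22 FPKM. The highest were Dbf4, the activator of the origin kinase Cdc7, at 18.9 and 14.7 FPKM, and Clspn, a checkpoint adaptor, at 1.45 and 0.962 FPKM. Without the added 1 FPKM, Pclaf and Timeless were 1.57-fold and 1.52-fold lower and Clspn 1.51-fold higher. The licensing inhibitor Gmnn was at 28.6 and 31.0 FPKM, and Top2a, which untangles sister chromatids, at 6.46 and 8.05 FPKM. The other origin recognition genes Orc3, Orc4 and Orc5 had log2 ratios of 0.28, 0.24 and 0.07.

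Replication-coupled chromatin genes had a median of -0.02 over 10 genes, with 6 below 0 (47.3% of all genes). Hells, a chromatin remodeller, was at 4.39 and 6.96 FPKM, 1.59-fold lower (1.35 to 1.87). Dnmt1, which copies DNA methylation, was at 22.6 and 31.0 FPKM, 1.37-fold lower (1.27 to 1.48), and its recruiter Uhrf1 at 7.40 and 8.10 FPKM. The histone chaperone Supt16 was 1.26-fold higher (1.19 to 1.34). Of 19 further nucleotide supply genes 9 were below 0 (47.3% of all genes) and 10 above (52.7%), with a median of 0.09. Shmt1, of folate metabolism, was at 9.07 and 16.6 FPKM, 1.83-fold lower (1.56 to 2.15). It was the only 1 of these 19 at least 1.5-fold lower once 1 FPKM is added (5.53% of all genes). In the other direction 0 were past 1.5-fold (5.99%). Dctd, a deaminase of deoxycytidylate, was at 2.37 and 3.95 FPKM, 1.67-fold lower (1.14 to 2.49) without that addition. The mitochondrial folate enzyme Mthfd2 was 1.35-fold higher (1.23 to 1.48).

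Genes that control G1 and S had a median of 0.02 over 22 genes, with 10 below 0 (47.3% of all genes). Cdkn2c, an inhibitor of Cdk4 and Cdk6, was at 6.01 and 18.4 FPKM, 3.06-fold lower (2.43 to 3.93). At the other end Tfdp2, a partner of E2F factors, was at 3.58 and 2.02 FPKM, 1.78-fold higher (1.199 to 2.61). The S phase cyclin Ccna2 was at 8.78 and 10.7 FPKM, 1.21-fold lower (1.02 to 1.45). The inhibitors Cdkn1a and Cdkn1b were at 2.36 and 2.99 FPKM and at 7.76 and 7.91 FPKM.

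Mitosis genes, which are used after replication is complete, were lower by more than the replication genes in their median, -0.46 against -0.24. Of 16 with a mean of 1 or more, 13 were below 0 (47.3% of all genes). At least 1.5-fold lower were 6 (5.53%, but 9.94% of genes with a mean from 1 to under 10), and 1 was at least 2-fold lower (1.98%). The lowest were Ccnb2, at 6.09 and 15.1 FPKM, and Ube2c, at 8.32 and 16.3 FPKM. The highest were Aurka, at 5.94 and 4.73 FPKM, and Aurkb, at 4.64 and 4.57 FPKM, with intervals that included 1. Mki67, the usual proliferation marker, was at 1.51 and 2.60 FPKM, 1.72-fold lower (1.40 to 2.12). Summed FPKM of the 20 listed mitosis genes was 84.4 with probucol and 125 untreated. The median of mean FPKM was 4.20 for the 16 mitosis genes and 20.7 for the 44 replication genes. The difference between the lists was not tested.

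Markers of other cells of the spleen differed as well, and some of those cells divide. Of all genes with a mean of 1 or more, 47.3% lay below 0 and 52.7% above, the shares to set beside the counts of this paragraph. In the erythroid list 9 of 10 genes were below 0 and 3 at least 2-fold lower (1.98% of all genes). These 3 were the globin genes Hbb-b1 (48.9 and 312 FPKM), Hba-a1 (55.3 and 158 FPKM) and Hba-a2 (106 and 378 FPKM). Summed FPKM of the list, most of it globin, was 305 with probucol and 992 untreated. Klf1, the erythroid master regulator, was at 0.983 and 2.41 FPKM. In the B cell list 8 of 9 genes were above 0 and 7 at least 2-fold higher (1.62% of all genes). Summed FPKM of that list was 108 and 57.9. Summed FPKM of the 6 germinal centre genes, some of which T cells also express, was 79.3 and 70.2. Of 10 myeloid progenitor and neutrophil genes 8 were above 0 (summed FPKM 1069 and 951), of 8 macrophage genes 6 (188 and 179), and of 4 plasma cell genes 3 (102 and 92.5). Lyz2, at 125 and 132 FPKM, made up most of the macrophage sum. Csf1r was at 3.75 and 1.85 FPKM, Adgre1 at 1.25 and 0.855 FPKM and C1qa at 5.39 and 5.48 FPKM. Most of the plasma cell sum was Xbp1, at 66.2 and 63.0 FPKM. Jchain was at 27.6 and 18.9 FPKM, while Prdm1 was lower with probucol, at 4.96 and 7.09 FPKM. Under a mean of 1 FPKM, Sdc1 was at 0.141 and 0.561 FPKM and Tnfrsf17 at 0 and 0.496 FPKM. Of 6 natural killer genes 4 were below 0, 2 of them at least 2-fold lower (1.98% of all genes), with a median of -0.73. Klrd1 was at 1.22 and 6.22 FPKM and Gzma at 0.150 and 3.28 FPKM. Prf1, at 49.9 and 36.3 FPKM, made up most of the summed FPKM of 58.6 and 55.0. Both fixed markers of these cells were higher with probucol. Klrb1c was at 1.82 and 1.57 FPKM, with an interval that included 1. Ncr1, under a mean of 1 FPKM, was at 1.04 and 0.0795 FPKM. Of 9 T cell genes 6 were below 0, with a median of -0.02 and summed FPKM of 5226 and 5198. Of the CD8 genes, Cd8a was at 0.139 and 0.276 FPKM and Cd8b1 at 15.9 and 19.6 FPKM. The part of any of these cells in the replication gene ratios was not tested.

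**Figure D5:**
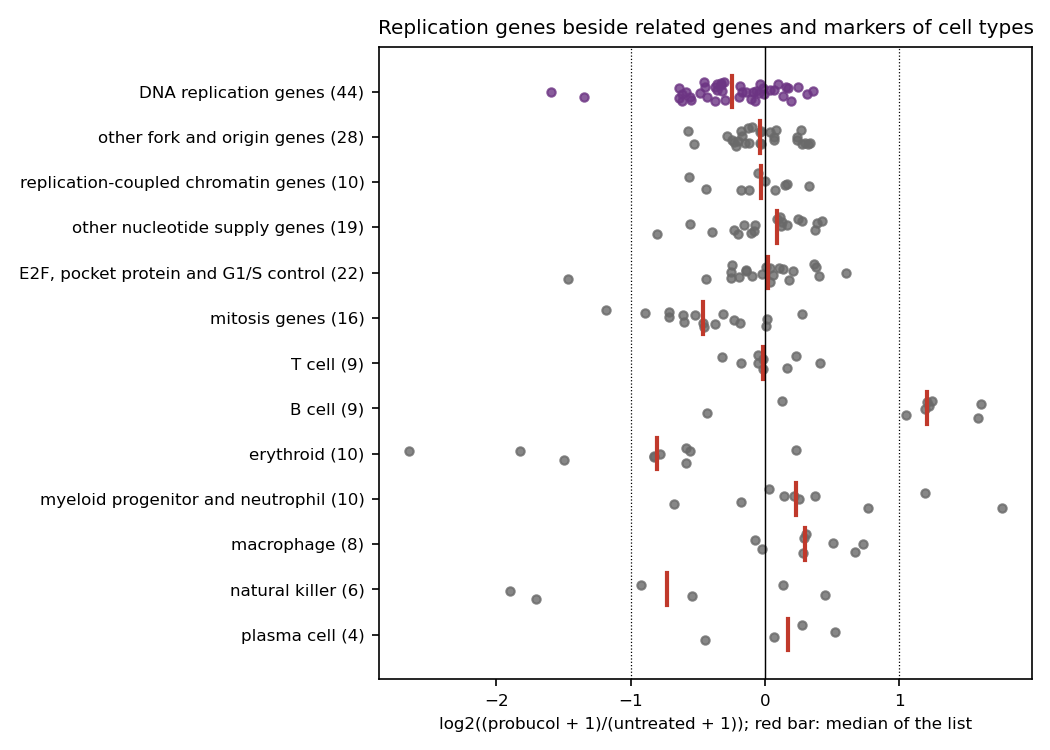
Log2 ratios (FPKM + 1) of single genes with a mean of 1 FPKM or more, by list, with red bars for the list medians and dotted lines at 2-fold. The replication gene median lies at -0.24, between the related lists near 0 and the mitosis list at -0.46, while the erythroid and B cell lists lie at -0.80 and 1.21.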

How the data were processed

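RNA sequencing of 1 probucol and 1 untreated library of splenic CD4+ T cells was used. Per the labels' protocols, RNA was isolated with a miRNeasy Micro Kit and turned into full-length cDNA with SMART-Seq HT, and libraries were made with a Nextera kit. Per the file headers, the authors deposited FPKM, 1 value per gene symbol. The submitters' processing notes name TopHat2 2.1.1, Bowtie2, Cuffdiff 2.2.1 and mm10, without roles. The annotation and filters: not given in the sources used here. No stranded counting is stated, so overlapping genes cannot be told apart. This bears on the 10 members that share exon bases with another gene: Orc6, Mcm7, Gins2, Rfc2, Rfc4, Rfc5, Lig1, Chaf1a, Tk1 and Ccne2.

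Ratios were computed on FPKM + 1 over all genes with a mean of 1 or more (Python 3.11.15, pandas 2.3.3, SciPy 1.17.1). Fragments per gene were estimated from FPKM steps (0.1005 and 0.100 FPKM per fragment at 1 kb, 210 bases subtracted; 76.4% and 77.2% of low values within 0.1 of a whole number, where 20% would be by chance) and RefSeq-linked GENCODE M21 transcript lengths. They are approximate. No count model was fitted, since the values are FPKM. Scripts were tested on simulated data. The members, lists and naming rule (all members; the 2 highest and 2 lowest per related list; fixed markers) were chosen with earlier results of these data known. For length, not every gene under the rule is printed, and some are not reported here. Trbc2, Hbb-bt and Ahsp found no match and are not analysed here. Alternatives were other pseudocounts and filters, rescaling, centring, and removal of a length and GC trend.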

Additional observations from a re-analysis of the deposited data

How the results depend on the processing

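The median ratio of the replication genes stayed below 0, between -0.30 and -0.17, under all 8 alternatives. Percentages in brackets are shares of all genes under the same setting. The count below 0, 34 of 44 (47.3%), was 36 of 46 with no filter (40.6%) and 30 of 37 with the filter raised to 5 FPKM (48.3%). It was 32 of 44 with equal FPKM sums (44.7%) and 25 of 35 without members that share exon bases (47.3%). Under the remaining alternatives this count was unchanged. The count at least 2-fold lower, 2, was 0 with pseudocount 5, 1 with the filter raised to a mean of 5 FPKM, and 1 without the 10 members that share exon bases with another gene, an alternative chosen after seeing the data. The count at least 1.5-fold lower, 7 (5.53%), was 1 with pseudocount 5 (1.88%) and 4 after removal of the trend on length and GC content (5.18%). It was 8 with pseudocount 0.1 (7.47%) and 8 of 46 with no filter (4.40%). With the filter at 5 FPKM it was 6 of 37 (3.38%), with equal FPKM sums 6 (5.21%), and without members sharing exon bases 5 of 35 (5.53%). The count at least 1.5-fold higher, 0 (5.99%), was 1 with pseudocount 0.1 (8.70%). A larger pseudocount shrinks low genes by construction; for the trend the cause was not tested. Of 336 single ratios recomputed, 4 had the other sign, in Gins1, Lig1 and Pola1, all near 0. With 1 library per group, differences between animals, sorts or library preparations cannot be told apart from the treatment. No paired analysis was possible because each group had 1 library.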

Other observations

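Several regulators of low level, picked out after their values were seen and under a mean of 1 FPKM, differed between the libraries. E2f7, an atypical E2F that represses replication genes, was at 0.228 FPKM in the probucol library and 1.46 FPKM in the other, 6.39-fold lower (3.45 to 12.9), and its relative E2f8 at 0.547 and 1.15 FPKM, 2.096-fold lower (1.204 to 4.004). The kinetochore gene Cenpf was at 0.450 and 0.970 FPKM, 2.15-fold lower (1.52 to 3.08). In the other direction Mcm8, a relative of the ring helicase with a role in recombination, was at 1.20 and 0.489 FPKM, 2.45-fold higher (1.33 to 4.86), and the checkpoint kinase Bub1 at 1.02 and 0.411 FPKM, 2.48-fold higher (1.31 to 5.28). Levels this low rest on few fragments, and the libraries differed in how many symbols were above 0 (14289 with probucol and 16876 untreated).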
